A study of Rattus norvegicus with 10 samples.

Results

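The circadian clock genes described here are Arntl, Clock, Per1, Per2, Per3, Cry1, Nr1d1, Dbp, Nfil3 and Bhlhe41, chosen by name. Each of these 10 symbols had 1 row among the 32545 genes of the deposited table. All 10 passed the minimum mean level of 0.5 FPKM (fragments scaled by the authors to gene length and library depth), as did 14508 genes in all. The libraries came from kidney cortex of Dahl salt-sensitive rats (SS/JrHsdMcwi, genotype given as wild type), inbred rats that become hypertensive when fed salt. In 5 libraries the rats had eaten 4% NaCl with 2% oxonic acid for 3 weeks, and in 5 libraries 4% NaCl without it (the vehicle group). Oxonic acid blocks uricase, the enzyme by which rodents break down uric acid. All animals had telemeters implanted at 8 to 9 weeks of age, ate 0.4% NaCl during 4 days of baseline recordings, and had their kidneys flushed with saline before harvest. The design used both sexes and no sex is given per library. The Y-linked Eif2s3y stood at 34.6 to 48.7 FPKM in all 10 libraries, so each held RNA from male tissue. The sources used here give neither the clock time of harvest nor a light schedule. By the deposited table's annotation the genes lie on chromosomes 1 (Arntl and Dbp), 4 (Bhlhe41), 5 (Per3), 7 (Cry1), 9 (Per2), 10 (Per1 and Nr1d1), 14 (Clock) and 17 (Nfil3), and the build of that annotation is not stated.

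The molecular clock is a feedback loop of transcription. ARNTL (also called BMAL1) and CLOCK pair up and switch on genes that carry E-boxes, among them the period and cryptochrome genes, whose proteins gather and shut the pair off again. In a second loop NR1D1 (REV-ERB alpha) represses Arntl at ROR elements, and in a further arm DBP activates and NFIL3 represses genes with D-boxes. In rodent tissues Arntl RNA peaks at the opposite time of day from Dbp and the period RNAs. The renal clock is known for timing the excretion of sodium, and feeding time and glucocorticoids can shift clocks outside the brain.

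The promoters are shown because the clock loops act through E-boxes, ROR elements and D-boxes. RefSeq promoters (build GRCr8, 250 bases before to 50 after a gene's start, read 5′ to 3′ on the gene's strand) were matched to 9 of the 10 genes, Cry1 being the other one. The letters searched on both strands were CACGTG (E-box), CACGTT (a variant E-box), TTATGTAA and TTATGCAA (D-box), TAGGTCA and TGGGTCA (core of the ROR element) and TGACGTCA (cyclic AMP response element). At least 1 of them stood in a window of 4 genes, and none in the windows of Clock, Per1, Per3, Dbp and Nfil3. The share of all promoters with any of them was not counted. The windows below are among those with a match. Capitals mark the matches.
Arntl, listed as Bmal1, chr1:176766078-176766377, plus strand: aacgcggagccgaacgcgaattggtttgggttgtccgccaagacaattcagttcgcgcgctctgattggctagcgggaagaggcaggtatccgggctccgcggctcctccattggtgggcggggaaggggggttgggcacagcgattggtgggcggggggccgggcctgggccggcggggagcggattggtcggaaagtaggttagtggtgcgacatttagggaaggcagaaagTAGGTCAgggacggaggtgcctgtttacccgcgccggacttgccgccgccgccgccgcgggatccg
Per2, chr9:99496944-99497243, minus strand: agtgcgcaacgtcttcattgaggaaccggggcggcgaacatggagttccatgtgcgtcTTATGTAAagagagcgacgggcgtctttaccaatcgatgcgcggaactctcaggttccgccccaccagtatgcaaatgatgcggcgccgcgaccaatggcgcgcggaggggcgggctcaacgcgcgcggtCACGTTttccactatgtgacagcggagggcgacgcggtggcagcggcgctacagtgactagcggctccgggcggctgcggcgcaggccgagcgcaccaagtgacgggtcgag
Nr1d1, the downstream of its 2 listed starts, chr10:84229405-84229704, minus strand: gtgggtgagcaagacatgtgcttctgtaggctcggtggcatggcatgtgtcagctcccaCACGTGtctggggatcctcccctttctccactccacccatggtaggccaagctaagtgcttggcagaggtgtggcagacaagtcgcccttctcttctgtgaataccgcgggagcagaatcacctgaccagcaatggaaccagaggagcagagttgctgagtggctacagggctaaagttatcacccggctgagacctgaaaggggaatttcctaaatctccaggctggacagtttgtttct
Bhlhe41, chr4:180569306-180569605, minus strand: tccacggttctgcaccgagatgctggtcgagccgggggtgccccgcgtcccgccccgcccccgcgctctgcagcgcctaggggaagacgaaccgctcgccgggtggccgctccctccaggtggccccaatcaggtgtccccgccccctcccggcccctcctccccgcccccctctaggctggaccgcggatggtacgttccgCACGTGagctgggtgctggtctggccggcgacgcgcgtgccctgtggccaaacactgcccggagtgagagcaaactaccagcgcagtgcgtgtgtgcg

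The Arntl window held TAGGTCA, a ROR element core, beginning 16 bases before the start, and 2.63% of the 33469 RefSeq promoters of that length held the same letters. Per2 carried both a D-box (TTATGTAA, in 0.893% of promoters) and a variant E-box (CACGTT, in 4.83%). The E-box CACGTG stood in the windows of Bhlhe41 and of the downstream start of Nr1d1 and in 6.42% of all promoters. The upstream Nr1d1 window, chr10:84231763-84232062, held CACGTT on the opposite strand. These are matches of letters in short windows, and binding was not measured.

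The libraries differed in ways beyond diet. The library numbers in the descriptions fall into 3 runs with gaps of more than 10 between them, and the labels do not say what the numbers record. Run A holds oxonic acid libraries 1, 2 and 3 and 0 vehicle libraries, run B holds oxonic acid library 4 with vehicle libraries 1, 2 and 3, and run C holds oxonic acid library 5 with vehicle libraries 4 and 5. Vehicle library 4 stood apart, scoring 39.8 on principal component 1, which held 18.2% of the variance, against -13.7 to 15.5 in the other 9, and had the lowest mitochondrial share of reads in genes, 9.23%. Depth was 14.5 to 18.5 M (mega) reads in genes per library. Proximal tubule markers of the cortex (8 of 8 found) summed to 3141 to 4054 FPKM with oxonic acid and 2908 to 4017 FPKM with vehicle. Inner medulla and thin limb markers (5 of 5) summed to 24.7 to 147 and 32.6 to 60.6 FPKM in those groups, the highest sum falling in run A.

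Oxonic acid was compared with vehicle to ask whether the clock genes differed with uricase inhibition during salt loading, and 0 of the 10 passed. Nr1d1, Clock and Arntl had higher means with oxonic acid, and Cry1, Nfil3 and Per1 lower means, but the ranges of the groups overlapped for all 10. In limma's test on log2(FPKM + 0.5), with Benjamini-Hochberg adjustment over 14508 genes, 0 genes passed at 0.05 (0%), and the voom variant on recovered reads also called 0. At an unadjusted p under 0.05 stood 1 of the 10 clock genes (Nr1d1) and 9.49% of all genes tested, 4.32% higher and 5.17% lower with oxonic acid. The groups did not overlap for 0 of the 10 clock genes and for 1.91% of all genes. The median log2 difference was -0.073 over the clock genes and 0.0053 over all genes. No label ties a library to its own rat, so p-values measure the spread between libraries, part of which may be technical. Leaving out 1 library moved the log2 difference of several genes by over 1.5 times: Per1 to -0.097 without oxonic acid library 2, Per2 to -0.064 without oxonic acid library 5 and -0.33 without oxonic acid library 4, and Dbp to -0.052 and -0.25 without those same libraries. Bhlhe41 ranged over 0.021 to 0.30, lowest without vehicle library 5 and highest without vehicle library 3. Arntl came to 0.31 without oxonic acid library 5 and 0.70 without oxonic acid library 4. In a tissue sample, fewer cells of a type and less RNA per cell cannot be told apart.

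**Figure D1:**
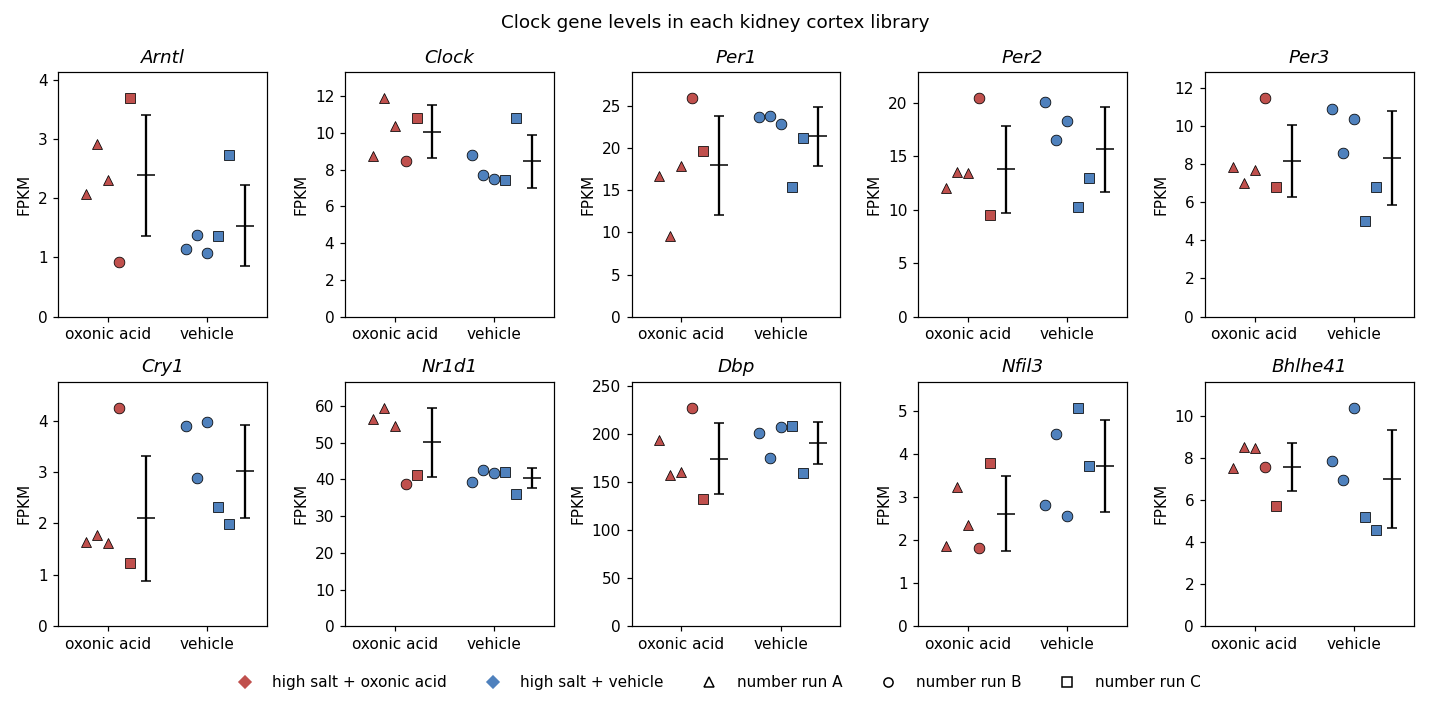
Level of each clock gene in FPKM (vertical axes, linear, from 0) in the 5 oxonic acid libraries (red) and the 5 vehicle libraries (blue), with the mean ± SD beside each group and the symbol showing the run of library numbers. The groups overlap in all 10 panels, and the circles of run B lie above every other library for Per1, Per2, Per3 and Cry1.

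Among the activators, Arntl (chromosome 1, 178039063 to 178137465 in the table's coordinates) measured 2.08, 2.92, 2.30, 0.924 and 3.69 FPKM in oxonic acid libraries 1 to 5, against 1.13, 1.38, 1.08, 1.36 and 2.73 FPKM in vehicle libraries 1 to 5. The lowest value of all was in oxonic acid library 4 and the highest in oxonic acid library 5, so the oxonic acid group spanned the whole range. The log2 difference was 0.47 (SE 0.28, limma adjusted p = 0.607), on 50 to 159 reads per library. Clock, its partner, measured 8.75, 11.9, 10.4, 8.47 and 10.8 FPKM with oxonic acid, against 8.78, 7.71, 7.49, 7.44 and 10.8 FPKM with vehicle. Vehicle libraries 2, 3 and 4 lay below every oxonic acid library, and vehicle libraries 1 and 5 lay within the oxonic acid range. The log2 difference was 0.24 (SE 0.12, limma adjusted p = 0.546).

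The repressors were spread widely within both groups. Per1 measured 16.7, 9.62, 17.9, 26.0 and 19.6 FPKM with oxonic acid, against 23.8, 23.8, 22.9, 15.5 and 21.2 FPKM with vehicle. Oxonic acid library 4 was the highest of all and oxonic acid library 2 the lowest (log2 difference -0.30, SE 0.22, limma adjusted p = 0.668). Per2 measured 11.99, 13.5, 13.4, 20.4 and 9.48 FPKM with oxonic acid, against 20.02, 16.5, 18.3, 10.3 and 12.99 FPKM with vehicle. Both extremes again lay in the oxonic acid group (log2 difference -0.18, SE 0.21, limma adjusted p = 0.795).

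Per3, the remaining period gene, measured 7.85, 7.03, 7.69, 11.5 and 6.78 FPKM with oxonic acid, against 10.9, 8.56, 10.4, 4.999 and 6.80 FPKM with vehicle. The vehicle range enclosed all but the highest oxonic acid library, and the log2 difference was -0.0017 (SE 0.20, limma adjusted p = 0.999). Cry1, the cryptochrome that partners the period proteins, measured 1.64, 1.77, 1.61, 4.25 and 1.23 FPKM with oxonic acid, against 3.89, 2.89, 3.97, 2.32 and 1.99 FPKM with vehicle. All vehicle libraries were above 4 of the 5 oxonic acid libraries, while oxonic acid library 4 was above them all (log2 difference -0.49, SE 0.27, limma adjusted p = 0.572, on 52 to 226 reads per library).

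Nr1d1, the receptor that represses Arntl, had the smallest unadjusted p of the clock genes in limma's test. It measured 56.5, 59.5, 54.5, 38.7 and 41.3 FPKM with oxonic acid, against 39.3, 42.6, 41.8, 42.0 and 36.1 FPKM with vehicle. Oxonic acid libraries 1, 2 and 3 were above every vehicle library, and oxonic acid libraries 4 and 5 lay within the vehicle range. The log2 difference was 0.29 (SE 0.12, limma unadjusted p = 0.0325, adjusted p = 0.490). A two-sided exact permutation test of the means gave p = 0.111, where 0.00794 is the smallest possible. The same permutation test gave p = 0.111 for Nfil3, 0.119 for Clock and 0.127 for Cry1. The limma unadjusted p of Nr1d1 was 0.0591 with total reads scaling. It was 0.0584 to 0.0835 when oxonic acid library 1, 2 or 3 or vehicle library 1 or 5 was left out. The 3 high libraries are the whole of run A, which holds 0 vehicle libraries, so for them diet and run cannot be told apart. With the runs as a block the log2 difference was -0.0091 (95% interval -0.18 to 0.17, limma adjusted p = 0.982), and it was -0.090 within run B and 0.082 within run C.

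Nr1d1 shares 1059 bases with Thra, the thyroid hormone receptor alpha gene on the opposite strand, and the strandedness of the libraries is not stated, so reads there cannot be assigned with certainty. Thra measured 21.0, 21.8, 20.1, 16.8 and 19.3 FPKM with oxonic acid, against 15.6, 16.6, 16.8, 15.7 and 18.8 FPKM with vehicle. It was highest in the same 3 oxonic acid libraries as Nr1d1. None of the other 9 clock genes overlapped another gene of the table.

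Of the output regulators, Dbp, the activator at D-boxes, was the clock gene with the highest FPKM in every library. It measured 194, 157, 160.5, 228 and 132 FPKM with oxonic acid, against 202, 176, 208, 208 and 159.5 FPKM with vehicle. The oxonic acid libraries again held the highest and the lowest value (log2 difference -0.14, SE 0.14, limma adjusted p = 0.745). Nfil3, its counterpart repressor, measured 1.86, 3.23, 2.34, 1.82 and 3.80 FPKM with oxonic acid, against 2.82, 4.46, 2.55, 5.08 and 3.73 FPKM with vehicle. Its vehicle libraries reached higher, with oxonic acid libraries 2 and 5 among them (log2 difference -0.45, SE 0.22, limma adjusted p = 0.538). Bhlhe41 (DEC2), which competes with the activators at E-boxes, measured 7.54, 8.53, 8.45, 7.60 and 5.72 FPKM with oxonic acid, against 7.86, 6.97, 10.4, 5.18 and 4.57 FPKM with vehicle. The vehicle range enclosed the oxonic acid range (log2 difference 0.15, SE 0.19, limma adjusted p = 0.819).

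**Figure D2:**
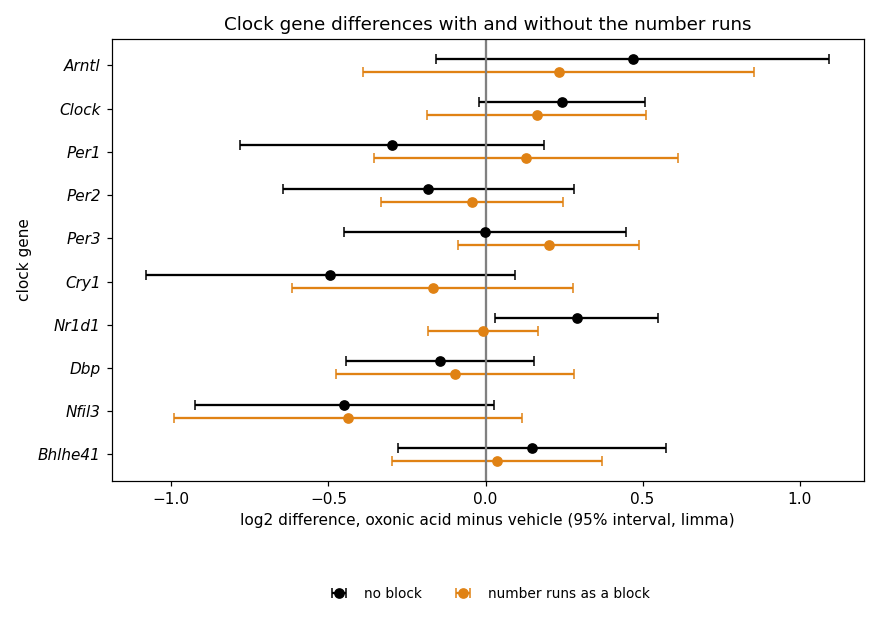
Log2 difference of each clock gene, oxonic acid minus vehicle (horizontal axis), with its 95% interval from limma, without a block (black) and with the runs of library numbers as a block (orange). Without the block the interval of Nr1d1, 0.029 to 0.55, is the one that leaves out 0, and with the block all 10 intervals include 0.

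With the runs as a block, 9 of the 10 clock genes had a smaller difference than without it, and the exception was Per3 (0.20, limma adjusted p = 0.781). At an unadjusted p under 0.05 stood 0 of the 10 clock genes in that fit and 6.69% of all genes tested. Nfil3 had the largest difference of the 10 there (-0.44, 95% interval -0.99 to 0.12, limma adjusted p = 0.774). The other intervals allow differences as large as 0.85 for Arntl and -0.61 for Cry1. Run A adds nothing to this estimate, which rests on 2 oxonic acid and 5 vehicle libraries. Macrophage markers (6 of 6 found) summed to 91.9 to 114.2 FPKM with oxonic acid and 115.0 to 149 FPKM with vehicle, and by run to 91.9 to 114.2 FPKM in run A, 106 to 149 FPKM in run B and 96.5 to 116 FPKM in run C. Of the 6, Mrc1 alone did not overlap between diets, and the part of these markers in the clock gene values was not tested.

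The clock genes varied more between runs than most genes did. In run B the period genes and Cry1 were highest and Arntl was low, in run A Nr1d1 was highest and the mean of Per1 lowest, and in run C Bhlhe41 was lowest. Per2 averaged 18.8 ± 1.77 FPKM in run B (SD, n = 4), 12.97 ± 0.854 FPKM in run A (n = 3) and 10.9 ± 1.84 FPKM in run C (n = 3), and runs A and C differed from run B with no overlap. Cry1 averaged 3.75 ± 0.597, 1.67 ± 0.0832 and 1.85 ± 0.559 FPKM in runs B, A and C, again with no overlap. Arntl averaged 1.13 ± 0.190 FPKM in run B, 2.43 ± 0.436 FPKM in run A and 2.59 ± 1.17 FPKM in run C. Vehicle library 4 of run C, at 1.36 FPKM, lay within the run B range for Arntl.

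**Figure D3:**
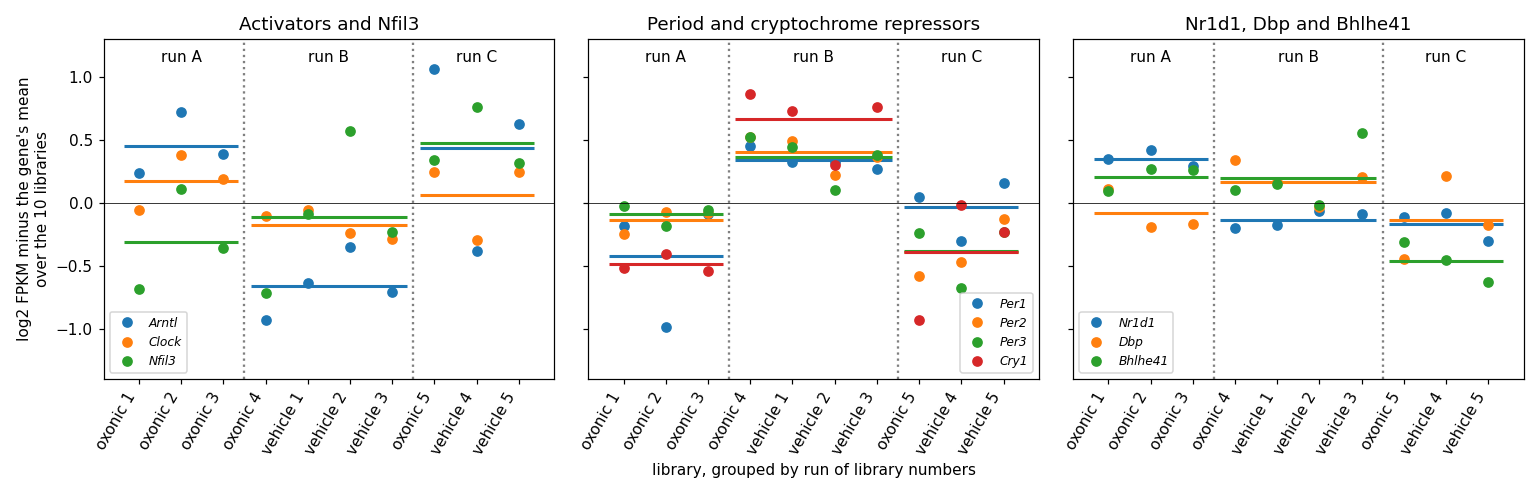
Log2 FPKM of each clock gene minus its own mean over the 10 libraries (vertical axis), with libraries placed by run of library numbers and a bar at each run's mean. The 4 libraries of run B, which hold 1 oxonic acid and 3 vehicle libraries, are the highest for Per1, Per2, Per3 and Cry1, and Arntl is low in the same libraries.

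A limma F-test of the 3 runs, with diet as a term, put 7 of the 10 clock genes at an unadjusted p under 0.05 and 13.4% of all genes tested. These were Per2 (limma adjusted p = 0.0999), Per3 (0.107), Nr1d1 (0.116), Cry1 (0.145), Bhlhe41 (0.167), Arntl (0.299) and Per1 (0.307). None of them passed over all genes, where 13 genes did (0.0896%). With voom on the recovered reads Per2 and Per3 passed (limma adjusted p = 0.0497 for both), and that fit called 35 genes. Run B lay entirely above or below the other 6 libraries for 4 of the 10 clock genes (Per1, Per2, Per3 and Cry1) and for 2.67% of all genes. For run A this held for 1 of the 10 (Nr1d1) and 3.41% of genes, and for run C for 2 of the 10 (Per3 and Bhlhe41) and 7.57%. Since the 3 runs also differ in the balance of diets, their contrast rests on diet as a term and on few libraries.

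The share of the variation between libraries that lay between runs had a median of 71.9% over the clock genes and 28.4% over all genes tested. It reached 91.3% for Nr1d1, 86.2% for Per2, 83.0% for Cry1, 80.2% for Per3 and 77.8% for Bhlhe41. At the low end stood Dbp (35.4%), Clock (40.1%) and Nfil3 (44.4%), and all 10 were above the median gene. Between the diets lay a median of 17.8% over the clock genes and 9.11% over all genes. The run and diet shares were computed apart and overlap, since run A holds oxonic acid libraries only. For Nr1d1 they were 91.3% and 37.2%. A split into 3 runs also takes up more variation by chance than a split into 2 diets, so the shares are not separate or like parts.

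**Figure D4:**
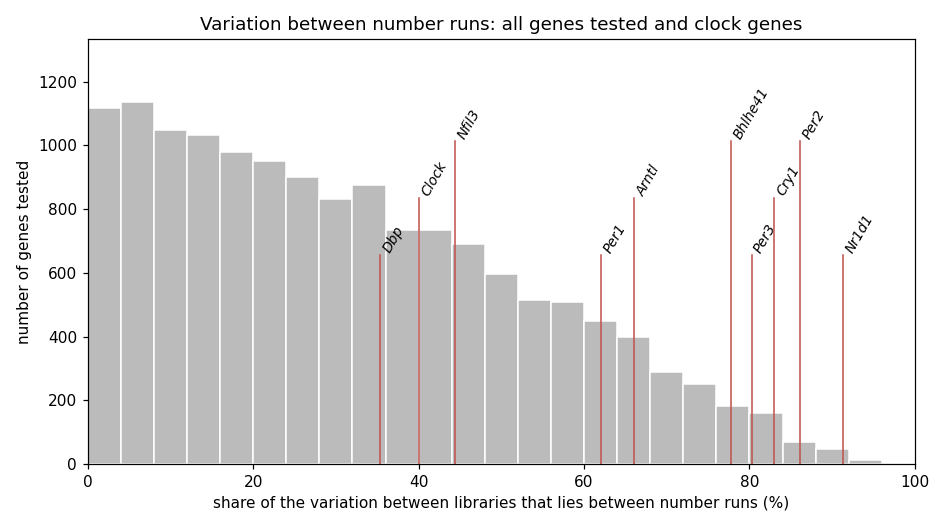
Number of tested genes (vertical axis) by the share of their variation between libraries that lies between the 3 runs of library numbers (horizontal axis, percent), with a red line at each clock gene. All 10 clock genes lie above the median gene at 28.4%, and Nr1d1 is the farthest right at 91.3%.

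The clock genes were also variable within diets, a spread that still holds the differences between runs. The SD of log2(FPKM + 0.5) within diets was 0.51 for Arntl, 0.48 for Cry1 and 0.40 for Per1, against a median of 0.16 over all genes tested. It was above that median for all 10, with Clock (0.21) and Nr1d1 (0.21) the steadiest. Low counts widen such spreads, so each gene was also set against the 1000 genes nearest to it in level. There Per1 and Per2 stood at the percentile 96.9, Per3 at 93.7 and Bhlhe41 at 90.8, and the others between 78.1 and 88.6. From the lowest to the highest library Arntl differed 3.99-fold, Cry1 3.46-fold and Clock 1.599-fold in FPKM.

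Across libraries Arntl varied with Clock and against Dbp and Cry1, and Per2 varied with Per3 and Cry1. Of 45 pairs, 5 passed a permutation test of Pearson's r with Benjamini-Hochberg adjustment over the pairs, and 3 passed with Spearman's rho. Arntl was lower where Dbp was higher, with r = -0.92 (permutation p = 0.00040, adjusted p = 0.0060) and rho = -0.95 (permutation p = 9.0e-05, adjusted p = 0.0041), n = 10 libraries. Without the 2 libraries farthest from the Arntl median, oxonic acid libraries 2 and 5, r was -0.85. With run means removed it was -0.95 (permutation p = 0.0011, adjusted p = 0.0504), at about the smallest p that shuffling within runs can give. Single runs hold 3 or 4 libraries, too few for an r of their own. With diet means removed in place of run means 5 pairs passed, Per3 with Cry1 (adjusted p = 0.0415) among them and Arntl with Clock (r = 0.80, permutation p = 0.01075, adjusted p = 0.0691) not.

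Arntl and Cry1 had r = -0.92 (permutation p = 0.00036, adjusted p = 0.0060) and rho = -0.89 (permutation p = 0.0013, adjusted p = 0.0197), with r = -0.90 without the same 2 libraries and -0.77 with run means removed (permutation p = 0.0874). Run B lay apart from the other libraries for Per2, Per3 and Cry1, so a pooled r between them includes that step. Per2 and Per3 had r = 0.91 (permutation p = 0.00034, adjusted p = 0.0060) and rho = 0.90 (permutation p = 0.00088, adjusted p = 0.0197), with r = 0.82 without oxonic acid library 4 and vehicle library 1. With run means removed that pair's r was 0.46 (permutation p = 0.371). Per2 and Cry1 had r = 0.88 (permutation p = 0.0013, adjusted p = 0.0143) and rho = 0.81 (permutation p = 0.0069, adjusted p = 0.0618), with r = 0.78 without those 2 libraries. With run means removed it was 0.62 (permutation p = 0.244). Arntl and Clock had r = 0.85 (permutation p = 0.0044, adjusted p = 0.0395) and rho = 0.77 (permutation p = 0.0128, adjusted p = 0.0824), with r = 0.77 without oxonic acid libraries 2 and 5 and 0.78 with run means removed (permutation p = 0.0746).

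With each library left out in turn, 4 or 5 pairs passed in all fits except those without oxonic acid library 5 or vehicle library 4. The r of Arntl with Dbp was -0.96 to -0.89 over these fits. Without oxonic acid library 5, which had the highest Arntl and lowest Dbp, 1 pair passed, and without vehicle library 4, 12 pairs passed. Arntl with Clock no longer passed when any library other than oxonic acid library 4 or vehicle library 4 was left out. With run means removed 0 of the 45 passed. There libraries were shuffled only within their small runs, so no pair on its own could reach an adjusted p under 0.05. Nr1d1 passed with none of the other 9, its r being 0.37 with Arntl, -0.22 with Dbp and -0.75 with Per1 (permutation p = 0.0082, adjusted p = 0.0528). Per1 had r of 0.54 with Per2 and 0.61 with Per3 (rho 0.68 and 0.73), and neither pair passed. Without oxonic acid library 2 and vehicle library 4, the farthest from the Per1 median, r was 0.79 and 0.70.

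**Figure D5:**
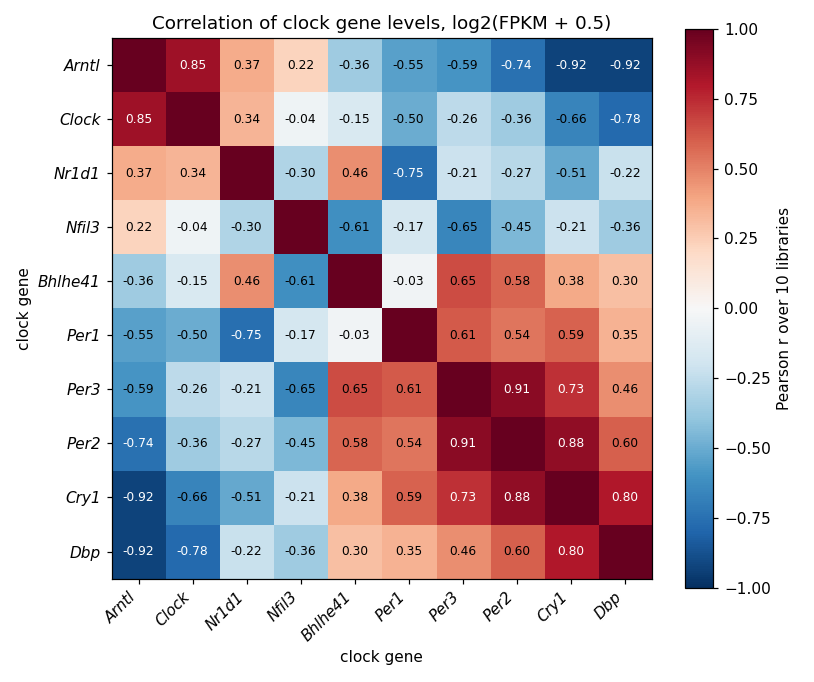
Pearson r of log2(FPKM + 0.5) over the 10 libraries for every pair of clock genes (both axes list the genes, colour from -1 in blue to 1 in red). Arntl and Clock are negative against Dbp and Cry1, down to -0.92, while Per2, Per3 and Cry1 are positive among themselves, up to 0.91.

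Of 18 other clock loop genes tested, 5 had an r of at least 0.9 in size with any of the 10 clock genes. The other 13 lay below that with all 10. Npas2, a relative of Clock that also pairs with ARNTL, had r = 0.99 with Arntl and -0.91 with Dbp over the 10 libraries, values given as a description. Npas2 measured 1.002, 1.80, 1.52, 0.360 and 2.44 FPKM with oxonic acid, against 0.436, 0.543, 0.433, 0.639 and 1.87 FPKM with vehicle. Its order over the libraries was close to that of Arntl, lowest in oxonic acid library 4 and highest in oxonic acid library 5. Ciart, a circadian repressor, had r = -0.95 with Arntl and 0.94 with Cry1. Tef, of the Dbp family, had r = -0.91 with Arntl, the second cryptochrome Cry2 r = 0.94 with Per3, and the deubiquitinase Usp2 r = -0.90 with Arntl. Npas2 rested on 28 to 151 reads per library. Of the variation of these 5 genes, 67.8% (Npas2) to 73.6% (Ciart) lay between runs, and their r with run means removed was not computed. Beyond 0.9 in size against Arntl stood 0.356% of 11805 named genes with a mean of at least 1 FPKM, and 0.136% against Dbp. Of the 18, Npas2, Ciart, Tef and Usp2 were beyond it against Arntl, and Npas2 against Dbp. The share of all genes beyond 0.9 against any of the 10 clock genes was not counted, so the 5 of 18 has no like background here.

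Of 22 other clock loop genes 21 were found and 18 tested, 7 with higher and 11 with lower means with oxonic acid, and 0 passed. Their median log2 difference was -0.028, and with the runs as a block it was 0.066, with 11 higher and 7 lower. Btrc, a ubiquitin ligase subunit that marks period proteins for breakdown, had the smallest p. It measured 3.65 to 4.23 FPKM with oxonic acid and 3.13 to 3.63 FPKM with vehicle (log2 difference 0.17, unadjusted p = 0.042, limma adjusted p = 0.514). Fbxw11, its close relative, had a log2 difference of 0.099, Npas2 0.57, Nono -0.062, Ciart -0.36 and the casein kinase Csnk1d -0.043, with limma adjusted p of 0.540 to 0.763. Between runs 9 of the 18 had an unadjusted p under 0.05, against 13.4% of all genes tested, and 0 passed.

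Genes most like Arntl by r, after Npas2, were Lrrc29 (0.95), Casc3 (0.94) and Tpra1 (0.94), and the most opposite were Tsr1 (-0.95), Ciart (-0.95), Enpp3 (-0.95), Nus1 (-0.94) and Ipo5 (-0.94). Most like Dbp were Arfgap3 (0.96), Fmo5 (0.95), Erp44 (0.94), Clint1 (0.93) and Enpp3 (0.92), and most opposite Zmynd15 (-0.97), Trim41 (-0.94), Creb3l1 (-0.92), Npas2 (-0.91) and Rasa2 (-0.91). These were picked for their r among 11805 genes over 10 libraries.

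Known clock outputs did not pass between diets either. Of 22 such genes tested, 10 had higher and 12 lower means with oxonic acid, with a median log2 difference of -0.0064, and with the runs as a block 11 were higher and 11 lower (median 0.021). Slc9a3, the proximal sodium-proton exchanger, measured 27.5 to 33.9 FPKM with oxonic acid and 22.3 to 28.8 FPKM with vehicle (difference of 0.30 in log2, limma adjusted p = 0.335). The cell cycle inhibitor Cdkn1a had a log2 difference of -0.40 (limma adjusted p = 0.396) and the glucose transporter Slc5a1 one of 0.22 (0.560). Between runs 9 of the 22 had an unadjusted p under 0.05, against 13.4% of all genes tested, and 0 passed. Of these 9, Cldn8 and Leo1 had their highest mean in run C, Avpr2 in run A and the others in run B. Wee1, a cell cycle kinase named after its values were seen, measured 14.9 FPKM in the oxonic acid library of run B. It measured 11.5 to 13.8 FPKM in the vehicle libraries of run B, above the other 6 libraries at 6.85 to 10.2 FPKM.

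Glucocorticoids and growth signals are known inputs to Per1. Of 15 glucocorticoid responsive genes tested, 13 had lower means (median log2 difference -0.25) and 0 passed, while over all genes 6997 of 14508 were lower. With the runs as a block 9 of the 15 were lower and the median was -0.064, and without vehicle library 4 it was -0.18. Angptl4, a lipase inhibitor, measured 2.33 to 5.22 FPKM with oxonic acid and 3.97 to 10.1 FPKM with vehicle (log2 difference -0.97, limma adjusted p = 0.333). Lcn2, also an injury marker, had a log2 difference of -0.72 (limma adjusted p = 0.481) and the metallothionein Mt2A one of -0.25 (0.552). Vehicle library 4 was the highest of all for Angptl4 and Lcn2, as for Klf6, Atf3 and Ier3. Between runs 6 of the 15 had an unadjusted p under 0.05, against 13.4% of all genes tested, and 0 passed. Of these 6, Fkbp5, Zbtb16 and Tsc22d3 had their highest mean in run B, and Mt1, Mt2A and Cebpd in run C. Tsc22d3 and Sgk1 are also on the list of clock outputs, and Tsc22d3 counts among the 9 outputs above, so the lists are not separate. Mt2A averaged 1277, 1345 and 1810 FPKM in runs A, B and C. The stress co-chaperone Fkbp5, named after its values were seen, measured 33.5 FPKM in the oxonic acid library of run B. It measured 21.8 to 34.8 FPKM in the vehicle libraries of run B, against 9.85 to 16.5 FPKM in the other 6 libraries. Of 13 immediate early genes tested, 12 had lower means (median log2 difference -0.26) and 0 passed. With the runs as a block 13 of the 13 were lower (median -0.28), and without vehicle library 4 the median was -0.15. Klf6 measured 7.51 to 11.2 FPKM with oxonic acid and 11.6 to 15.8 FPKM with vehicle (log2 difference -0.54, limma adjusted p = 0.327), Atf3 had a log2 difference of -0.67 (0.510) and Ier3 one of -0.41 (0.547). Jun, also chosen after its values were seen, was at 107 FPKM in both vehicle libraries of run C and at 53.5 to 75.0 FPKM elsewhere.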

How the data were processed

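RNA was extracted with Trizol and selected with poly-T beads, per the labels' protocols, which describe directional and non-directional libraries without saying which was made. The submitters' processing notes name featureCounts 1.5.0-p3, HISAT2 2.0.5, fastp and StringTie 1.3.3b, with no build. The authors deposited FPKM per gene and library. Multiplying FPKM by gene length gave back whole reads in each library, for 100% of values at a tolerance of 0.01.

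Tests covered genes averaging 0.5 FPKM or more, on log2(FPKM + 0.5) with limma 3.58.1 in R 4.3.3 (eBayes with trend, 95% intervals), oxonic acid against vehicle, 5 libraries each, two-sided. The pseudocount understates changes of low genes. Permutation tests of r used 100000 resamples in Python 3.11.15, shuffled within diets or within runs where those means were removed. The procedure was tested on simulated data. No 2 libraries agreed within sampling noise (lowest chi-square per degree of freedom 5.0). The runs came from library numbers; the F-test between runs was added after the data were seen. The clock genes and lists were chosen with earlier results of these data known. Named in the text are all 10 clock genes, other loop genes with the 6 smallest p or an r of at least 0.9 in size with a clock gene, the 3 smallest p of each other list and the 5 genes most and least like Arntl and Dbp, of which 1 is not reported here. The marker lists not described beside a result are in the closing section. A list symbol with several rows was taken at its highest mean. Alternatives were the pseudocount, filter, scaling, voom, array weights, blocks and each library left out.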

Additional observations from a re-analysis of the deposited data

Results flagged for a closer look

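In 20 sets of 5 libraries (10 clock genes, 2 diets), 3 had a library far from the others. Chance alone flags about 1 in 20 independent sets. These sets share libraries and their genes vary together, so the 3 cannot be read as an excess. Per3 and Cry1 were far above the other oxonic acid libraries in oxonic acid library 4, at 11.5 and 4.25 FPKM, where the gap to the next library was 0.771 and 0.821 of the group's range. That library is the one oxonic acid library of run B. Arntl was far above the other vehicle libraries in vehicle library 5, at 2.73 FPKM, with a gap of 0.817 of the range.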

How the results depend on the processing

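The count of genes called between diets was 0 and stayed at 0 to 1 with each library left out, the 1 coming without vehicle library 1, and it was 1 with array weights. The number of clock genes at an unadjusted p under 0.05 was 1 as reported, beside 1377 of all 14508 genes tested. It was 2 with voom (1414 of all genes), 0 with total reads scaling (1576 of 14520) and 4 with array weights (1659). It was 3 with the replicate block (1445), 0 with the runs as a block (971) and 0 without run A (534). The 4 with array weights were Arntl, Clock, Cry1 and Nr1d1. With each library left out it was 0 to 4, and over all genes 1012 to 1538. The 0 came without oxonic acid library 3 (1162 of all genes). The 4, the same genes, came without oxonic acid library 4 (1286 of 14528). No clock gene passed over all genes in any of these fits between diets. The sign turned for Per1 (0.13 with the runs as a block, 0.091 without run A), Nr1d1 (-0.0091 and -0.012 in those fits), Bhlhe41 (-0.042 with array weights, -0.024 without run A) and Per3 (1.5e-05 at pseudocount 0.1, 0.0045 with voom, 0.20 with the runs as a block, 0.13 without run A, and -0.16 to 0.10 with each library left out). The 13 genes that differed between runs became 35 with voom, 42 with array weights and 1 without the diet term. They numbered 0 to 19 with each library left out. The clock genes at an unadjusted p under 0.05 between runs, 7 as reported, numbered 5 to 9 with each library left out. Over all genes that count was 1939 as reported and 1470 to 2169 with each library left out. The 5 called pairs became 0 with run means removed, where no pair on its own could pass. They became 8 with total reads scaling and 1 to 12 with each library left out. The cause of these changes was not tested. Library numbers within groups did not pair the samples: the deviations of same-numbered libraries had r of -0.013 to 0.20, and 1 of 5 correlated best with its own number. Arntl, Cry1, Nfil3 and Bhlhe41, at 50 to 226 reads per library, were the clock genes most limited by depth.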

Other observations

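The marker lists not given beside a result had these sums. Podocyte markers (5 of 5 found) summed to 92.4 to 128 FPKM with oxonic acid and 89.1 to 130 FPKM with vehicle. Thick ascending limb markers (2 of 2) summed to 1190 to 2578 and 1010 to 1721 FPKM in those groups, distal convoluted tubule markers (3 of 3) to 82.9 to 121 and 69.7 to 134 FPKM, and collecting duct markers (4 of 4) to 146 to 264 and 126 to 175 FPKM. T cell markers (5 of 5) summed to 24.5 to 25.4 and 24.9 to 37.96 FPKM, and endothelial markers (3 of 4) to 47.7 to 57.3 and 43.3 to 51.2 FPKM. Markers from outside the kidney were low: adrenal cortex (3 of 4) 1.97 to 4.00 and 2.17 to 4.6001 FPKM, adipose (4 of 4) 3.84 to 10.2 and 4.34 to 7.67 FPKM, and liver (3 of 3) 0.212 to 5.33 and 0.498 to 5.15 FPKM. Ucp1, of the adipose list, was listed at 0 in every vehicle library.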
